A study of Mus musculus with 18 samples.

Results

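The genes described here are 10 genes of lipid droplets and fat accumulation in the liver: Cd36, Lpl, Fabp4, Cidea, Cidec, Plin2, Plin4, G0s2, Pparg and Mogat1. They were taken by gene symbol from the array's annotation, which gave 16 probe sets among the 34958 that list 1 symbol, or 10 of 18194 genes. Gene expression had been measured on 18 Affymetrix oligonucleotide arrays, 1 array per sample, in a mouse study of Tlr4 and the intestinal microbiota in hepatocellular carcinoma (HCC). All mice were male. The Tlr4-mutant tumours (n = 5) were lesions of C3H/HeJ mice, whose receptor for bacterial lipopolysaccharide carries the Tlr4P712H change. The antibiotic tumours (n = 3) were lesions of wild-type (WT) C3H/HeOuJ mice that drank ampicillin, neomycin and metronidazole at 1 g/l each and vancomycin at 500 mg/l from week 10 to week 54. The WT tumours (n = 7) were lesions of C3H/HeOuJ mice without antibiotics. All 3 tumour groups had received the carcinogen diethylnitrosamine (100 mg/kg, week 12) and 6 doses of the hepatotoxin CCl4 (0.5 ml/kg) from week 13 to week 23, and HCC tissue was dissected at 54 weeks of age. Normal liver (n = 3) came from untreated C3H/HeOuJ mice aged 15 weeks, so tumour, carcinogen treatment and age cannot be told apart in a comparison with it. The mutant and WT mice belong to different substrains, so the Tlr4 change cannot be told apart from other differences between the substrains.

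A lipid droplet is a core of triglyceride and cholesterol ester under a single phospholipid layer with its own coat proteins. Hepatocytes fill it with fatty acids taken from the blood, released from lipoproteins or made in the cell, and empty it through lipases. Normal hepatocytes keep few droplets, while steatotic liver and many liver tumours hold more. Cd36, Lpl and Fabp4 bring in, release or carry fatty acids. Cidea, Cidec, Plin2 and Plin4 sit on the droplet, G0s2 inhibits its main lipase, Mogat1 makes the diacylglycerol precursor of triglyceride, and Pparg is a nuclear receptor that switches on several of these genes in adipocytes and in fatty liver.

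The promoters of Cd36, Plin2 and Cidec are printed because these genes are the fatty acid transporter with the largest tumour difference and the pair of droplet genes that varied together between tumours. Each is the RefSeq window from 250 bases before to 50 bases after an annotated start on mouse build GRCm38.p6, read 5′ to 3′ on the gene's strand. Capitals mark AGGTCA, the hexamer bound by PPAR and other nuclear receptors, or TTGCNNAA, a C/EBP core, on either strand.
Cd36 promoter, chr5:17835847-17836146, minus strand: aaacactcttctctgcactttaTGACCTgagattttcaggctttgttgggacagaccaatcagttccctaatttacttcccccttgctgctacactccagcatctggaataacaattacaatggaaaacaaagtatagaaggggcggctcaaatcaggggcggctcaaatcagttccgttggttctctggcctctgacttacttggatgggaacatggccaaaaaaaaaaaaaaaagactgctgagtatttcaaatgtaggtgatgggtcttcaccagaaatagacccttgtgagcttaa
Plin2 promoter, chr4:86670010-86670309, minus strand: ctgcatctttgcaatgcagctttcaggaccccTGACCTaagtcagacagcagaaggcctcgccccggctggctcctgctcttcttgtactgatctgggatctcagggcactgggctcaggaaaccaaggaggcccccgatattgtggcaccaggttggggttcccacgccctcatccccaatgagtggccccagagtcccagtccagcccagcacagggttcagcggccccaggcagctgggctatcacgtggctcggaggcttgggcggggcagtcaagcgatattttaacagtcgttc
Cidec promoter, first window, chr6:113435711-113436010, minus strand: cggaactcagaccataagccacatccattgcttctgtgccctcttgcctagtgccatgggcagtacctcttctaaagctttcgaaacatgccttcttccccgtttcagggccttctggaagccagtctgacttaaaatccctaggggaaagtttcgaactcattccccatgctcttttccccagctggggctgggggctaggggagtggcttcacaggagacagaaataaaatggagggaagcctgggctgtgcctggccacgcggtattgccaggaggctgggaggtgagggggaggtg
Cidec promoter, second window, chr6:113434715-113435014, minus strand: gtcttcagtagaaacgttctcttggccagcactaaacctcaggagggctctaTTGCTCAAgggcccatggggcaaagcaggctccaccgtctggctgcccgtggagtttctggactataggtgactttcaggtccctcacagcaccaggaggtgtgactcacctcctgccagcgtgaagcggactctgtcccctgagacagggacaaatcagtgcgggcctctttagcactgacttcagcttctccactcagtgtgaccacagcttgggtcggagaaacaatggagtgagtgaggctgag

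RefSeq windows were found for 7 of the 10 genes, 10 windows in all, with 2 for Cidec and 3 for Pparg. AGGTCA was in the Cd36 window, with its first base at position -228 from the start, in the Plin2 window at -218 and in 2 Pparg windows, and 16.3% of all 32851 promoters of this length hold it. TTGCNNAA was in the second Cidec window at -198 and in 1 Pparg window, against 10.8% of all promoters. A direct repeat of the hexamer with 1 base between (AGGNCANAGGNCA) was in none of the 10 windows and in 0.381% of all promoters. TATAAA was in 1 Pparg window, against 13.6% of all promoters, and it shares no base with the hexamer there. These matches describe letters in the windows and were not tested against the expression values.

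Values are log2 signals after GCRMA background correction, so a difference of 1 is a doubling of signal. A probe set below log2 4 was treated as near background. Genes were tested when a probe set exceeded log2 4 on at least 3 of the 18 arrays, which left 9053 genes. Of the 10 genes 7 were tested (Cd36, Lpl, Fabp4, Cidea, Cidec, Plin2 and G0s2), and Plin4, Pparg and Mogat1 were not. Cidea and Cidec exceeded log2 4 on tumour arrays only, so they entered the test through tumours. The labels do not state whether each sample is a separate animal. P-values therefore reflect how far samples scatter within their groups, and that scatter may be technical. For each gene the limma model pools this scatter over all 4 groups, also those not compared. The median SD over all tested genes was 0.15 in normal liver, against 0.27 in Tlr4-mutant, 0.31 in antibiotic and 0.31 in WT tumours. Precision is limited by array number, with groups as small as 3.

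Arrays were alike in their median expressed signal, between 6.69 and 6.85. The normal liver arrays stood apart in their controls. Gapdh 3′ control signals exceeded the 5′ ones by 0.38 to 1.02 in Tlr4-mutant tumours, 0.26 to 0.53 in antibiotic tumours and 0.20 to 0.62 in WT tumours, against 1.37 to 1.61 in normal liver, on the log2 scale. The dap spike controls averaged 1.81 to 2.08 in all 15 tumours, against 7.87 to 8.21 in normal liver. Differences in labelling or RNA quality cannot be told apart from differences in tissue where normal liver is the comparison. Antibiotic tumour 30 held the highest signal of the 18 arrays for 12.2% and the lowest for 8.72% of the 9053 genes.

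On its brightest probe set, every tumour had more Cd36 signal than every normal liver. Cd36 (chr5:17781690-17888959), the scavenger receptor that takes up long-chain fatty acids, is read by 3 probe sets. The brightest, 1450883_a_at, had log2 signals of 8.73, 10.01, 8.42, 8.17 and 9.26 in Tlr4-mutant tumours and 7.70, 10.35 and 11.38 in antibiotic tumours. WT tumours lay between 7.58 and 10.22 with a median of 9.43, against 3.09, 5.55 and 5.30 in normal liver. The groups did not overlap, and normal liver 1 was the lowest of all arrays. Cd36 rose in Tlr4-mutant tumours to 8.92 ± 0.73, against 4.65 ± 1.35 in normal liver (SD, n = 5 and n = 3), a log2 difference of 4.27 ± 0.79 (SE, limma adjusted p = 0.00168, 19.3-fold). In antibiotic tumours its log2 signal rose by 5.16 ± 0.89 (SE, limma adjusted p = 0.00161, 35.8-fold), and in WT tumours by 4.32 ± 0.75 (SE, limma adjusted p = 0.000568). The SD of Cd36 in normal liver was larger than that of 99.97% of all tested genes, so the size of the fold rests on few and scattered arrays. Without antibiotic tumour 30, the highest of all, the antibiotic difference was 4.38 (limma adjusted p = 0.00715). Leaving out normal liver 1 gave log2 differences of 3.49 in Tlr4-mutant and 3.55 in WT tumours (for WT tumours, limma adjusted p = 0.00677). These are bulk samples, in which more cells of a type and more RNA per cell cannot be told apart.

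On the next brightest Cd36 probe set, 1423166_at, the log2 difference from normal liver was 3.05 in Tlr4-mutant tumours, 3.92 in antibiotic tumours and 2.81 in WT tumours. Without normal liver 1 its calls in mutant and WT tumours were lost (limma adjusted p = 0.0658 and 0.0514), with differences of 2.36 and 2.12. The dimmest, 1450884_at, lay below log2 4 in all 3 normal livers and averaged 4.17 in Tlr4-mutant, 5.15 in antibiotic and 4.10 in WT tumours, with WT tumour 19 below normal liver 2. Its antibiotic comparison passed (limma adjusted p = 0.0376), but the call was lost without antibiotic tumour 30, where the mean was 4.13 (limma adjusted p = 0.154), and without antibiotic tumour 29 or any 1 normal liver.

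Lpl, the lipoprotein lipase that frees fatty acids from circulating triglyceride (chr8:68880555-68906932), was also higher in mutant and WT tumours. Its brighter probe set, 1415904_at, had log2 signals of 12.17, 12.91, 12.19, 11.97 and 11.71 in Tlr4-mutant tumours and 11.08, 9.58 and 12.12 in antibiotic tumours. In WT tumours Lpl ranged over 10.30 to 13.05 with a median of 11.82, against 9.33, 10.33 and 9.76 in normal liver. On this probe set the mutant tumours lay above all normal livers, while antibiotic tumour 29 and WT tumour 22 lay within the normal range. Lpl rose by 2.38 ± 0.59 in Tlr4-mutant tumours (SE, limma adjusted p = 0.00981, 5.21-fold) and by 2.00 ± 0.55 in WT tumours (SE, limma adjusted p = 0.0104, 3.99-fold). In antibiotic tumours the difference was 1.12 ± 0.66 (SE, limma adjusted p = 0.25), and it was 0.52 without antibiotic tumour 30. Without normal liver 1 neither of the 2 calls held (limma adjusted p = 0.0538 for mutant tumours and 0.0571 for WT tumours). The other probe set, 1431056_a_at, gave larger log2 differences of 3.71, 2.50 and 3.21 for Tlr4-mutant, antibiotic and WT tumours, and all 3 passed (limma adjusted p = 0.0016, 0.0368 and 0.00162). Antibiotic tumour 29, at 8.41, and WT tumour 22, at 8.79, lay above the highest normal liver on it, at 8.12. The antibiotic call on it was lost without antibiotic tumour 30, with a difference of 1.85 (limma adjusted p = 0.133), and without antibiotic tumour 28, normal liver 1 or normal liver 3.

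Fabp4, a fatty acid carrier of adipocytes, macrophages and capillary endothelium (chr3:10204342-10208616), was higher in mutant and WT tumours as well. Its signal on 1451263_a_at was 8.96, 10.79, 9.71, 9.47 and 8.14 in Tlr4-mutant tumours and 8.81, 10.38 and 7.46 in antibiotic tumours. The 7 WT tumours spanned 8.65 to 10.46 around a median of 9.93, against 7.39, 7.49 and 7.61 in normal liver. On this probe set only antibiotic tumour 30, the lowest tumour, fell inside the normal range. Fabp4 rose by 1.92 ± 0.61 in Tlr4-mutant tumours (SE, limma adjusted p = 0.0334, 3.78-fold) and by 2.24 ± 0.57 in WT tumours (SE, limma adjusted p = 0.00674, 4.72-fold). The call in mutant tumours was lost without any 1 of the 3 normal livers, without mutant tumour 24, 25 or 26, or with no filter, with limma adjusted p up to 0.101. In antibiotic tumours the difference was 1.39 ± 0.68 (SE, limma adjusted p = 0.17). Without antibiotic tumour 30 it was 2.10 (limma adjusted p = 0.0493). The other tested probe set, 1417023_a_at, gave larger log2 differences of 2.61, 2.08 and 2.87 for Tlr4-mutant, antibiotic and WT tumours (limma adjusted p = 0.0119, 0.0666 and 0.00271). On it the mutant call was lost without normal liver 1 alone (limma adjusted p = 0.0581), and the antibiotic difference was 2.86 without antibiotic tumour 30 (limma adjusted p = 0.0193). That tumour, at 7.43, lay just above the highest normal liver on it, at 7.42.

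Cell type markers were read beside these genes. Of the adipocyte markers 6 are on the array, and Adipoq, Lep, Retn, Lipe and Slc2a4 stayed below log2 4 on every array, so these adipocyte transcripts were near background. The 6 summed to 747 to 1321 in Tlr4-mutant tumours, 662 to 847 in antibiotic tumours and 334 to 1098 in WT tumours, against 1474 to 1529 in normal liver, with the one tested marker, Cebpa, also a hepatocyte gene. The linear signals of the 12 macrophage and Kupffer cell markers summed to 921 to 4448 in Tlr4-mutant tumours, 574 to 4164 in antibiotic tumours and 585 to 5499 in WT tumours, against 824 to 1880 in normal liver. Of the 10 tested macrophage markers 2 rose in WT tumours and 0 in the other tumour groups (limma adjusted p under 0.05). Of all genes 18.8% rose in WT, 11.7% in mutant and 8.11% in antibiotic tumours. At an unadjusted limma p under 0.05, 0 markers changed in mutant and 1 in antibiotic tumours, against 37% and 32% of all genes. Marco and Timd4 stayed below log2 4 on every array. The 11 endothelial markers summed to 1422 to 2011 in Tlr4-mutant tumours, 756 to 3725 in antibiotic tumours and 152 to 2582 in WT tumours, against 945 to 1816 in normal liver. Gpihbp1, the endothelial protein that holds Lpl at the capillary wall, rose in Tlr4-mutant tumours by 2.47 on the log2 scale (limma adjusted p = 0.0418) and no other of the 10 tested endothelial markers passed against normal liver in any tumour group. Of 7 tested stellate cell and fibroblast markers 0 passed in any tumour group. Also 0 had an unadjusted limma p under 0.05, against 37% of all genes in mutant, 32% in antibiotic and 48.3% in WT tumours. The hepatocyte markers, among them Alb, were bright in every group, with sums of 118950 to 137238 in Tlr4-mutant tumours, 123470 to 130337 in antibiotic tumours and 104468 to 126291 in WT tumours, against 122691 to 129120 in normal liver. The part of these cell types in the differences of Cd36, Lpl and Fabp4 was not tested.

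**Figure D1:**
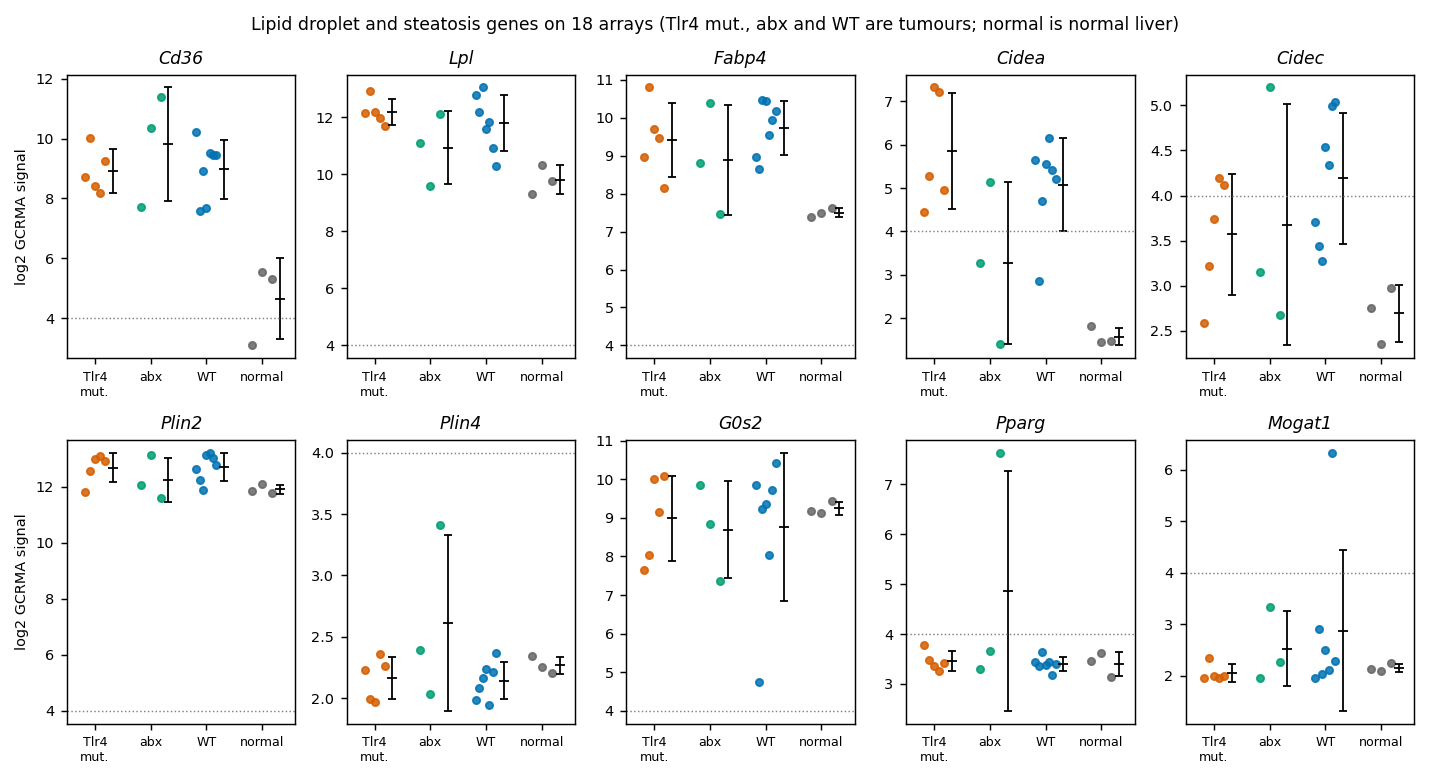
Log2 GCRMA signal (vertical axis) of the 10 genes on each of the 18 arrays, by group; bars give mean ± SD and the dotted line marks log2 4. Cd36 in all 15 tumours lies above all 3 normal livers, while Pparg and Mogat1 each have 1 tumour above log2 4, at 7.63 and 6.34.

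Among the droplet proteins, Cidea was near background in normal liver and present in most tumours. Cidea (chr18:67343564-67367794) promotes the fusion of small droplets into large ones. It had log2 signals of 4.45, 5.28, 7.32, 7.22 and 4.96 in Tlr4-mutant tumours and 3.27, 5.13 and 1.41 in antibiotic tumours. Cidea in WT tumours reached from 2.87 to 6.16 with a median of 5.41, against 1.82, 1.45 and 1.47 in normal liver. The mutant and WT tumours lay above all normal livers, and antibiotic tumour 30 lay below them. Cidea rose at least 3.59-fold in Tlr4-mutant tumours (5.84 ± 1.33, against 1.58 ± 0.21 in normal liver, SD, limma adjusted p = 0.00236) and at least 2.11-fold in WT tumours (5.08 ± 1.07, SD, limma adjusted p = 0.00309). These bounds set the normal livers at log2 4, while the p-values test the recorded signals and not the bounds. Antibiotic tumours, with a mean of 3.27 near background, did not pass with or without antibiotic tumour 30 (limma adjusted p = 0.22 with it and 0.0735 without it).

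Cidec (chr6:113424634-113435760), the Cidea relative that adipocytes use to build large droplets, lay close to background throughout. It had log2 signals of 2.59, 3.22, 3.74, 4.19 and 4.11 in Tlr4-mutant tumours and 3.16, 5.20 and 2.68 in antibiotic tumours. In WT tumours the signal ranged over 3.28 to 5.04 with a median of 4.34, against 2.75, 2.35 and 2.98 in normal liver. Only 7 of 15 tumours exceeded log2 4. In WT tumours Cidec was 4.19 ± 0.72, against 2.69 ± 0.32 in normal liver (SD, limma adjusted p = 0.0292 for the recorded signals). With normal liver set at log2 4 the bound was 1.14-fold, and this bound was not tested. The call was lost when any 1 normal liver was left out, with limma adjusted p up to 0.114. Tlr4-mutant tumours, at 3.57 on average, and antibiotic tumours, at 3.68, did not pass (limma adjusted p = 0.249 and 0.274), and no fold is given between groups this near background.

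Plin2 (chr4:86626910-86670217), the main droplet coat protein of hepatocytes, was bright on all arrays. Its signals were 11.83, 12.56, 13.01, 13.11 and 12.93 in Tlr4-mutant tumours and 12.05, 13.12 and 11.59 in antibiotic tumours. Among WT tumours Plin2 ran from 11.90 to 13.22 with a median of 12.79, against 11.86, 12.10 and 11.77 in normal liver. Of the 15 tumours 11 lay above all normal livers and 1, antibiotic tumour 30, lay below them. The log2 difference was 0.78 ± 0.36 in Tlr4-mutant tumours (95% interval 0.0090 to 1.54, limma adjusted p = 0.131) and 0.80 ± 0.34 in WT tumours (95% interval 0.077 to 1.53, limma adjusted p = 0.0732), so neither passed. It passed in WT tumours without WT tumour 18 (limma adjusted p = 0.0352), and also when only WT tumours and normal livers were fitted. In mutant tumours it passed without mutant tumour 23 (limma adjusted p = 0.0493). In antibiotic tumours the difference was 0.35 ± 0.40 (SE, limma adjusted p = 0.584). Plin4 (chr17:56100587-56109948), a droplet coat protein of adipocytes and muscle, stayed below log2 4 on every array, with its highest value of 3.41 in antibiotic tumour 30.

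G0s2 (chr1:193272160-193273188), the inhibitor of the droplet lipase Pnpla2, lay on both sides of normal liver in each tumour group. It had log2 signals of 7.66, 8.04, 10.00, 9.14 and 10.09 in Tlr4-mutant tumours and 9.86, 8.85 and 7.37 in antibiotic tumours. For WT tumours the range was 4.74 to 10.43 with a median of 9.36, against 9.17, 9.13 and 9.44 in normal liver. Of the 15 tumours 6 lay above all normal livers and 6 below them. The log2 difference was -0.26 ± 1.00 in Tlr4-mutant tumours (SE, limma adjusted p = 0.874), -0.55 ± 1.12 in antibiotic tumours (SE, limma adjusted p = 0.767) and -0.48 ± 0.94 in WT tumours (SE, limma adjusted p = 0.71). Without WT tumour 17, at 4.74, the WT difference was 0.19, and without antibiotic tumour 30 the antibiotic difference was 0.11.

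Pparg (chr6:115360879-115490404) and Mogat1 (chr1:78511060-78606964) each exceeded log2 4 in 1 tumour. Pparg lay between 3.25 and 3.79 in Tlr4-mutant tumours, at 3.30, 3.67 and 7.63 in antibiotic tumours and between 3.18 and 3.64 in WT tumours, against 3.45, 3.61 and 3.13 in normal liver. Antibiotic tumour 30 alone stood above background, by 3.63 over log2 4. Mogat1 lay between 1.95 and 2.36 in Tlr4-mutant tumours and at 1.97, 3.35 and 2.27 in antibiotic tumours. Mogat1 in WT tumours spanned 1.97 to 6.34 with a median of 2.28, against 2.13, 2.09 and 2.25 in normal liver. WT tumour 21, at 6.34, held the single high value. Being above log2 4 on 1 array alone was found for 930 probe sets with 1 symbol, 238 of them in antibiotic tumour 30 and 10 in WT tumour 21. With no filter on low values neither gene passed in any comparison.

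Counted over the 7 tested genes, 4 rose and 0 fell in Tlr4-mutant tumours against normal liver, where 22.3% of all tested genes changed and 11.7% rose (limma adjusted p under 0.05). In antibiotic tumours 1 rose, Cd36, and 0 fell, where 15% of all genes changed and 8.11% rose. In WT tumours 5 rose and 0 fell, where 39% of all genes changed and 18.8% rose. The 3 comparisons share the normal livers. The median log2 difference of the 7 genes was 1.92 in mutant, 1.12 in antibiotic and 2.00 in WT tumours, against medians over all genes of 0.019 in mutant, -0.0022 in antibiotic and -0.0078 in WT tumours. Tumours lay entirely above normal liver for 4 of the 7 genes in mutant tumours, where 20.2% of all genes did so, for 1 in antibiotic tumours (19.8%) and for 4 in WT tumours (18.4%). Without normal liver 1 the count of genes that rose was 2 in mutant tumours and 3 in WT tumours. Without antibiotic tumour 30 it was 2 in antibiotic tumours. Cidea and Cidec passed the filter through tumours alone, so they could hardly fall, and nothing is read from the count of all 7. A count without them was added after seeing the data: of the other 5 genes, 3 rose in mutant, 1 in antibiotic and 3 in WT tumours.

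**Figure D2:**
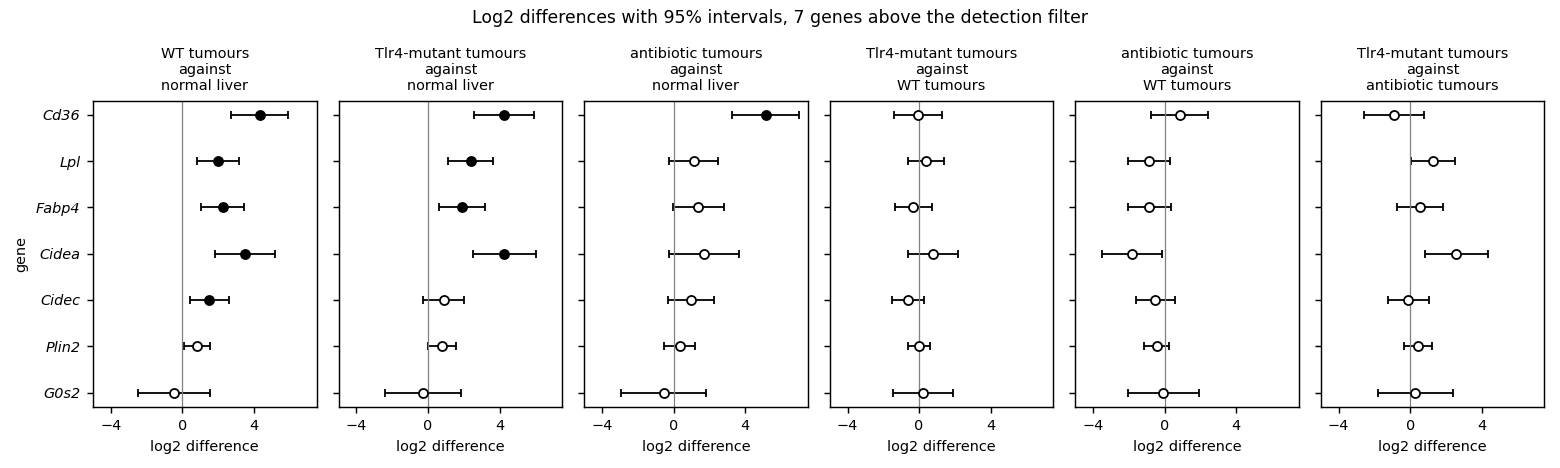
Log2 difference (horizontal axis) with its 95% interval for the 7 tested genes (vertical axis) in 6 comparisons; filled points have a limma adjusted p under 0.05. Cidea and Cidec lay below log2 4 in all normal livers, so their differences from normal liver are not measured folds. Filled points occur only in the 3 comparisons with normal liver, and Cd36 is filled in all 3 of them.

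The tumour groups were then set against each other. Tlr4-mutant and WT tumours also differ in substrain, so their comparison is not one of the Tlr4 change alone. None of the 7 genes passed between Tlr4-mutant and WT tumours, where 0.265% of all genes did (limma adjusted p under 0.05), and 0 had an unadjusted limma p under 0.05, against 16.7% of all genes. The largest log2 difference was that of Cidea, 0.77 ± 0.67 (SE, 95% interval -0.65 to 2.18, limma adjusted p = 0.572). For Cd36 the difference was -0.053 with an interval of -1.40 to 1.29, and for Plin2 it was -0.026 with an interval of -0.64 to 0.59. The Plin2 interval is the narrowest of the 7, and that of G0s2, -1.48 to 1.92, the widest.

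Between antibiotic and WT tumours none passed, where 0.0884% of all genes did. Cidea alone had an unadjusted limma p under 0.05, against 15.5% of all genes. Its log2 difference was -1.81 ± 0.79 (SE, 95% interval -3.48 to -0.14, limma adjusted p = 0.289), and it was -0.88 without antibiotic tumour 30. Cd36 differed by 0.84 (95% interval -0.75 to 2.42, limma adjusted p = 0.597) and by 0.052 without that tumour. Between Tlr4-mutant and antibiotic tumours none passed, where 0.232% of all genes did, and Cidea and Lpl had an unadjusted limma p under 0.05, against 10.3% of all genes. The log2 difference was 2.57 ± 0.83 for Cidea (SE, 95% interval 0.81 to 4.34, limma adjusted p = 0.294) and 1.26 ± 0.59 for Lpl (SE, 95% interval 0.02 to 2.50, limma adjusted p = 0.478). Without antibiotic tumour 30 the Cidea difference was 1.64.

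In WT tumours the SD of G0s2, 1.92, was larger than that of 98.5% of all tested genes, and that of Plin2, 0.49, larger than that of 74.4%, with the other 5 in between. Over all 15 tumours the highest signal was 51.8 times the lowest for G0s2, 13.9 times for Cd36, 11.1 times for Lpl and 10.1 times for Fabp4. The range was 3.10 times for Plin2. Antibiotic tumour 30 was lowest of the 15 tumours for 3 of the 7 genes (Cidea, Plin2 and Fabp4) and highest for Cd36. WT tumour 17 was lowest for Cd36 and G0s2. That tumour was the lowest of all arrays for 12.3% of the 9053 tested genes, the largest such share of any array. Its endothelial sum, 152, and its stellate list sum, 535, were also the lowest of all arrays. Its macrophage sum, 585, lay below every normal liver. Antibiotic tumour 30, highest for Cd36, had an endothelial sum of 756, also below every normal liver. The stellate and macrophage sums of that tumour, 3205 and 4164, lay above every normal liver. A link between these sums and Cd36 was not tested.

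**Figure D3:**
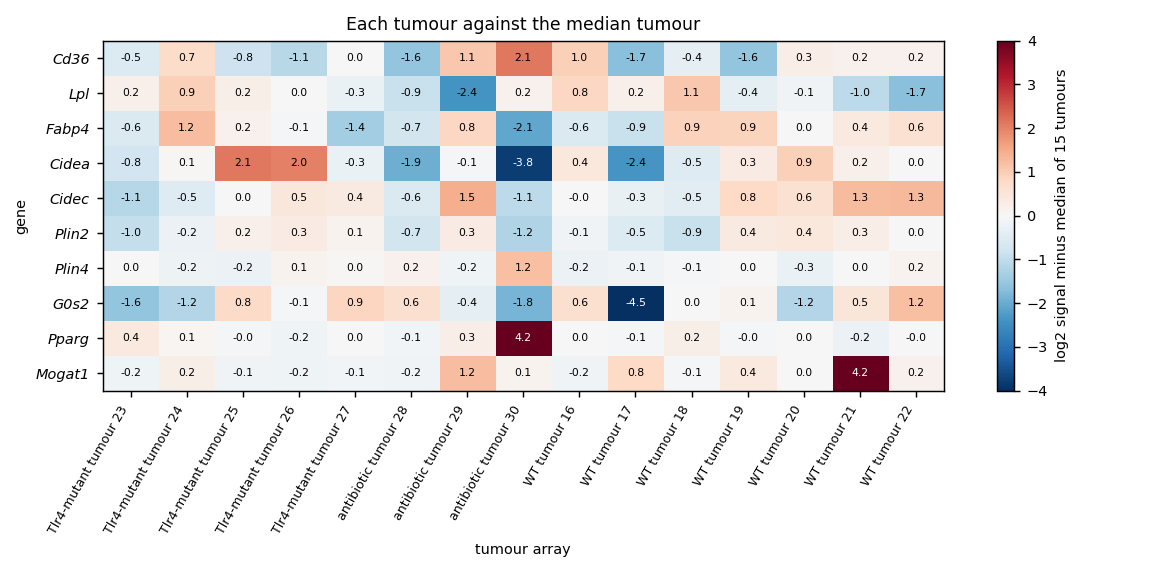
Log2 signal of each of the 10 genes (rows) in each of the 15 tumours (columns) minus the median of the 15 tumours, printed in each cell. Antibiotic tumour 30 is highest for Pparg and Cd36 and lowest for Cidea and Plin2, WT tumour 17 is lowest for G0s2 and WT tumour 21 highest for Mogat1.

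Plin2 varied together with Cidec and with Cidea between tumours. Correlations were computed for the 21 pairs of tested genes over the 15 tumours, with two-sided permutation tests. Cidec and Plin2 had Pearson's r = 0.84 (permutation p = 0.0001, adjusted p = 0.0021 over 21 pairs) and Spearman's rho = 0.85 (adjusted p = 0.00294). Without the 2 tumours farthest from the Cidec median r was 0.89, and within the 7 WT tumours it was 0.79. Cidea and Plin2 had r = 0.78 (permutation p = 0.00038, adjusted p = 0.00399) and rho = 0.75 (adjusted p = 0.0185), with r = 0.68 without the 2 farthest tumours and 0.69 within WT tumours. Cidec and Lpl ran opposite ways, with r = -0.71 (permutation p = 0.00244, adjusted p = 0.0171) and rho = -0.65 (adjusted p = 0.0687). That r was -0.49 without antibiotic tumour 29 and WT tumour 22, so it rests in part on those samples, and it was -0.93 within WT tumours. The other 18 pairs did not pass, and r of Cd36 with each of the other 6 genes lay between -0.20 and 0.05. The -0.20 with Cidea was 0.02 without antibiotic tumour 30 and WT tumour 17. Within the 7 WT tumours r of Cd36 was 0.63 with Cidea and 0.61 with G0s2. With Cidec, Plin2, Fabp4 and Lpl it lay there between -0.05 and 0.21. All Cidec values in tumours lie between 2.59 and 5.20, near the log2 4 mark, and the mutant and antibiotic groups hold too few tumours for a value of their own.

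**Figure D4:**
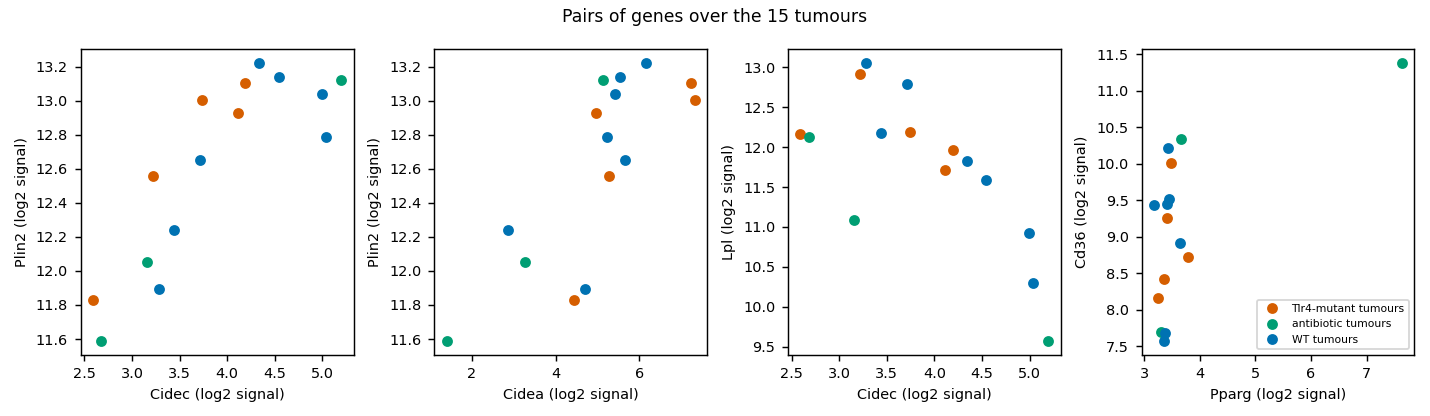
Log2 signals of gene pairs in the 15 tumours, 1 point per tumour, coloured by group. Plin2 is higher in tumours with more Cidec (r = 0.84) and more Cidea (r = 0.78), Lpl is lower with more Cidec (r = -0.71), and 1 antibiotic tumour lies far out for both Pparg, at 7.63, and Cd36, at 11.38.

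The 5 other genes closest to the mean z-score of the 7 tested genes over the 15 tumours were Arl1 (Pearson's r = 0.88), Gpc1 (0.86), Ptgfrn (0.86), Slc45a4 (0.84) and Pgm2 (0.83). Their Spearman's rho lay between 0.55 and 0.77. They were picked as the highest of all tested genes, so these values are a description. Among the 7 genes themselves, Cidea had r = 0.76 with the mean of the others (Spearman's rho = 0.60), Plin2 0.67 (0.29) and Cidec 0.51 (0.325). Fabp4 had r = 0.49 (rho = 0.21) and G0s2 0.45 (0.025), while Cd36 had -0.11 (-0.13) and Lpl -0.40 (-0.525). The positive values were all lower by rank.

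Other genes of droplet and triglyceride metabolism were counted by list, each at a limma adjusted p under 0.05, to place the 10 genes in their pathway. The 8 lists held 80 tested genes that are not among the 10. Of these, 16 changed in Tlr4-mutant tumours, 6 in antibiotic tumours and 30 in WT tumours, each against normal liver. These shares are close to or below those of all genes. Of all tested genes 11.7% rose and 10.5% fell in mutant tumours, 8.11% and 6.91% in antibiotic tumours, and 18.8% and 20.2% in WT tumours. At an unadjusted limma p under 0.05 the shares were 37% of all genes in mutant, 32% in antibiotic and 48.3% in WT tumours. For the 80 genes they were 31.25%, 32.5% and 46.25%. The list counts below are to be read beside these shares. List medians ran from -0.59 (lipogenic regulators) to 0.12 (PPARalpha targets) on the log2 scale in mutant tumours, from -0.53 (fatty acid synthesis) to 0.08 (PPARalpha targets) in antibiotic tumours and from -0.78 (lipogenic regulators) to 0.33 (PPARalpha targets) in WT tumours. Of 11 tested droplet proteins 0 rose and 1 fell in Tlr4-mutant tumours, 0 rose and 3 fell in antibiotic tumours, and 3 rose and 3 fell in WT tumours, each against normal liver. Cideb, the hepatocyte relative of Cidea and Cidec that works in lipoprotein assembly, fell in all 3 groups, by 0.60 in mutant, 0.66 in antibiotic and 0.86 in WT tumours on the log2 scale (limma adjusted p = 0.0102, 0.0155 and 0.000351). Its antibiotic call was lost without normal liver 1, normal liver 2 or antibiotic tumour 29 (limma adjusted p up to 0.0768). Bscl2, the seipin that shapes new droplets, fell by 0.77 in antibiotic and 0.75 in WT tumours (limma adjusted p = 0.014 and 0.00229). So Cideb and Cidea differed from normal liver in opposite directions in mutant and in WT tumours. The 3 that rose in WT tumours were Hilpda, Plin3 and Rab18, named after their values were seen.

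Of 11 tested genes of triglyceride synthesis 0 changed in Tlr4-mutant and antibiotic tumours (1 and 2 had an unadjusted limma p under 0.05), and 0 rose and 2 fell in WT tumours. These were Dgat2, which makes triglyceride from diacylglycerol, by 0.76, and Gpd1, which supplies its glycerol backbone, by 0.70 on the log2 scale (limma adjusted p = 0.0115 and 0.0154). Of 8 tested genes of triglyceride breakdown 2 rose in mutant tumours, 0 changed in antibiotic tumours (1 at an unadjusted limma p under 0.05), and 2 rose and 2 fell in WT tumours. Pnpla3, a droplet lipid hydrolase induced by feeding, rose by 4.05 in mutant and 3.56 in WT tumours (limma adjusted p = 0.00999 and 0.00824). Its normal liver mean of 3.42 was near background, so these differences are not measured folds. The mutant call was lost without normal liver 1 (limma adjusted p = 0.0534). Abhd5, the activator of Pnpla2, rose by 1.44 in mutant tumours (limma adjusted p = 0.042), and Mgll, the monoacylglycerol lipase, fell by 2.07 in WT tumours (limma adjusted p = 0.0121).

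Of 13 tested genes of fatty acid uptake and binding 4 rose and 0 fell in Tlr4-mutant tumours, 0 changed in antibiotic tumours (6 at an unadjusted limma p under 0.05), and 5 rose and 1 fell in WT tumours. Acsl3, an acyl-CoA synthetase of new droplets, rose by 1.29 in mutant and 1.25 in WT tumours (limma adjusted p = 0.00406 and 0.00177). Acsl4, a synthetase that prefers arachidonic acid, rose by 1.00 in mutant tumours (limma adjusted p = 0.0168), and Slc27a5, a liver transporter and bile acid ligase, fell by 1.22 in WT tumours (limma adjusted p = 0.00144). Of 11 tested lipogenic regulators 3 fell in mutant, 1 in antibiotic and 5 in WT tumours, and 0 rose. Ppargc1b, a coactivator of lipogenic genes, fell by 2.34 in mutant and 3.04 in WT tumours (limma adjusted p = 0.0392 and 0.00455). Cebpb fell by 1.20 in mutant tumours, Ppara by 1.27 in antibiotic tumours and Cebpa by 1.19 in WT tumours (limma adjusted p = 0.0231, 0.0475 and 0.00529), all of them transcription factors.

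Fatty acid synthesis had 9 tested genes, of which 1 fell in Tlr4-mutant, 0 changed in antibiotic (1 at an unadjusted limma p under 0.05) and 2 fell in WT tumours, and 0 rose. Me1, the malic enzyme that supplies NADPH for lipogenesis, fell by 3.15 in mutant and 2.21 in WT tumours (limma adjusted p = 0.00215 and 0.00709), and Thrsp, a lipogenic thyroid hormone target, by 2.68 in WT tumours (limma adjusted p = 0.0311). Of 8 tested genes of lipoprotein secretion 3 rose in mutant, 1 in antibiotic and 3 in WT tumours, and 0 fell. Tm6sf2, needed to load lipid onto secreted lipoproteins, rose by 1.12 in mutant, 0.85 in antibiotic and 1.15 in WT tumours (limma adjusted p = 0.00401, 0.0405 and 0.00124). Apoc2, the cofactor of Lpl, rose by 1.56 in mutant and 1.30 in WT tumours (limma adjusted p = 0.00586 and 0.0066). Of 9 tested PPARalpha targets 1 rose and 1 fell in mutant tumours, 1 rose in antibiotic tumours and 2 rose in WT tumours. Vnn1, a pantetheinase, rose at least 50.9-fold in mutant, 21.9-fold in antibiotic and 71.5-fold in WT tumours (limma adjusted p = 0.00174, 0.019 and 0.000351), although antibiotic tumour 28, at 3.67, lay within the normal range. Without antibiotic tumour 30 the Vnn1 bound in antibiotic tumours was 6.84-fold and the call was lost (limma adjusted p = 0.0663), as were the antibiotic calls of Bscl2 (0.0525) and Ppara (0.0729). Of the 33 changes named as the up to 2 passing genes of smallest p per list and comparison, 15 lost their call without some 1 array. None changed sign. Those lost in mutant tumours were Abhd5, Acot1, Acsl4, Cebpb, Pnpla3 and Ppargc1b. In antibiotic tumours they were Bscl2, Cideb, Ppara, Tm6sf2 and Vnn1, and in WT tumours Dgat2, Fgf21, Gpd1 and Thrsp. Gpihbp1, Hilpda, Plin3 and Rab18 are outside this count. Fgf21, a liver hormone, rose by 2.80 in WT tumours (limma adjusted p = 0.0203), and Acot1, an acyl-CoA thioesterase, fell by 1.87 in mutant tumours (limma adjusted p = 0.0485). Between tumour groups 0 of the 80 genes passed the limma test. At an unadjusted limma p under 0.05 there were 7 for Tlr4-mutant against WT tumours, 8.75% of the 80, against 16.7% of all genes. For antibiotic against WT tumours there were 12, or 15%, against 15.5% of all genes. Tlr4-mutant against antibiotic tumours had 13, or 16.25%, against 10.3% of all genes.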

How the data were processed

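RNA of 18 liver and HCC samples had been amplified, labelled with biotin and hybridised to mouse oligonucleotide arrays of 45101 probe sets, per the labels' protocols. The deposited values are log2 signals that the authors made with GCRMA, per the submitters' processing notes. The GCRMA version is not given in the sources used here. Arrays have no read depth, and their limit is signal over background.

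Groups were taken from the sample titles. Probe sets were kept when above log2 4 on at least 3 arrays (16663 kept, 14689 with 1 symbol), and a gene with several was read from the one with the highest mean over all arrays, which left 9053 genes to test. The 18 arrays entered one limma 3.58.1 model (R 4.3.3) of the 4 group means with empirical Bayes variances. Tests were two-sided, and p-values were adjusted by Benjamini-Hochberg over all 9053 genes, with 0.05 as the threshold. Where all arrays of a group lay below log2 4, the group was set at log2 4 and the fold given as at least that large. The p-value beside such a bound is that of the recorded signals, and the bound itself was not tested. Pairs of genes were correlated over 15 tumours with 100000 permutations. The procedure was tested on simulated data.

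The 10 genes, the lists and the comparisons were chosen with earlier results of these data known. The rule named the 10 genes always, up to 2 passing genes of smallest p for each list and comparison, and the 5 genes most correlated with the mean of the tested genes. Some genes of the lists were not analysed here. Entrez identifiers of the 10 genes were checked against RefSeq genes on GRCm38.p6. The alternatives dropped the filter or raised it to log2 6, averaged the probe sets of a gene, tested each probe set on its own, removed probe sets that may match several transcripts, centred or quantile-normalized the arrays, and used trended robust variances, a fit of the compared groups alone, a stricter threshold of 0.01 and fits with arrays left out. Leaving out each array for single probe sets and list genes was chosen after seeing the data. The plots were made in python 3.11.15 with matplotlib 3.10.9.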

Additional observations from a re-analysis of the deposited data

Results flagged for a closer look

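In 3 places a single Tlr4-mutant or WT tumour lay far from the rest of its group by Dixon's test at the 95% level. The test was not run in antibiotic tumours or normal liver, so Pparg at 7.63 in antibiotic tumour 30 could not be flagged. The 95% level is met by chance in about 1 of 20 groups. Over all 9053 tested genes it was met by 6.67% in WT tumours and by 4.18% in Tlr4-mutant tumours. G0s2 was 4.74 in WT tumour 17 (log2), with the nearest other WT tumour at 8.04. Mogat1 was 6.34 in WT tumour 21, with the nearest at 2.91. Mogat1 was also set apart in Tlr4-mutant tumour 24, at 2.36 with the nearest at 2.00, both near background.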

How the results depend on the processing

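Of 834 values for single genes under 29 alternative settings, 783 kept their direction and side of the threshold, 15 lost a call, 4 gained one and 32 changed sign, and those that changed sign had not passed in the first place. The number of genes that rose in WT tumours against normal liver was 5. It was 3 at an adjusted p under 0.01, and it ranged from 3 to 6 with 1 array left out. In Tlr4-mutant tumours it was 4, with a range of 2 to 5 with 1 array left out, and in antibiotic tumours 1, with a range of 1 to 2 and a value of 2 with all probe sets one by one. Between tumour groups it was 0 under every alternative run. The cause was not tested. Signs turned for Cd36 between Tlr4-mutant and WT tumours, at 0.085 when probe sets were averaged and between -0.33 and 0.16 with 1 array left out. Plin2 between these groups was 0.011 with centred arrays and between -0.16 and 0.19 with 1 array left out, and against normal liver in antibiotic tumours it lay between -0.088 and 0.68. Without WT tumours 17 and 19, G0s2 had differences of 0.21 in WT tumours from normal liver and -0.47 in Tlr4-mutant from WT tumours. With 1 array left out, G0s2 lay between -0.54 and 0.071 in mutant, -1.14 and 0.11 in antibiotic and -0.76 and 0.19 in WT tumours against normal liver. It lay between -0.45 and 0.55 for mutant against WT, -0.74 and 0.59 for antibiotic against WT and -0.37 and 0.87 for mutant against antibiotic tumours. For mutant against antibiotic tumours Cidec lay between -0.61 and 0.65 and Fabp4 between -0.18 and 1.28. Signals below log2 4 limit Cidec, and for Cidea in normal liver they leave a bound in place of a fold. No paired analysis was possible because the groups share no sample numbers.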

Other observations

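Antibiotic tumour 30, which held the highest Pparg and Cd36 signals, also stood apart in other lipid genes. Of the 80 tested genes of the pathway lists it was the lowest of the 18 arrays for 21 and the highest for 7, or 26.3% and 8.75%, where it was the lowest for 8.72% and the highest for 12.2% of all tested genes. Genes that make fatty acids were among the low ones, with their log2 signals given here beside the next lowest array. Fasn, the fatty acid synthase, was 9.09 there and 9.87 in WT tumour 17. Elovl6, which lengthens saturated fatty acids, was 6.11 and the next lowest 7.71 in WT tumour 18. Acly, which makes cytosolic acetyl-CoA, was 10.91 and the next lowest 11.66 in WT tumour 17. Fabp5, a fatty acid binding protein, was 10.17 and the next lowest 12.19 in normal liver 3.

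Antibiotic tumour 30 was the highest array for 2 of the 9 tested PPARalpha targets, Vnn1 and Acot2, and the other 7 were highest elsewhere. Vnn1 was 11.82 there and 10.78 in WT tumour 19, the next highest. Acot2, a mitochondrial acyl-CoA thioesterase, was 8.68 and the next highest 6.59 in antibiotic tumour 29. Ppargc1a, a coactivator of fatty acid oxidation genes, was 8.87 and the next highest 7.90 in Tlr4-mutant tumour 26. These genes were chosen after their values were seen, from 1 array, so no test stands behind them.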
